A study of Homo sapiens with 8 samples.

Results

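Interferon-stimulated genes are the genes that cells transcribe more when interferon binds its receptors, and 42 of them were followed across 8 expression arrays of A375, an established human melanoma cell line with an activating BRAF mutation. The 42 were taken from a list of genes known for that response. A gene entered if at least 1 probe set carried its symbol alone, and its probe set with the highest mean log2 intensity over the 8 arrays was used. That left 41 genes of 19775 measured on the arrays, and STAT2 was not analysed here. The cells received 1 of 3 siRNAs: a nontargeting control (siCont), one against the kinase BRAF (siBRAF) or one against the stress transcription factor ATF4 (siATF4). The first 5 conditions concern medium: siCont, siBRAF and siATF4 in normal RPMI1640, and siCont and siBRAF in glutamine-free RPMI1640, with 18 h of culture. The other 3 conditions are siCont in DMSO, siCont in 10 uM vemurafenib (an inhibitor of mutant BRAF) and siATF4 in 10 uM vemurafenib, with 4 h of treatment. All media held 10% serum, every cell group had received an siRNA, and each condition has 1 array. There are no replicates, so the differences below describe pairs of arrays and have no test.

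Type I and type III interferons act through JAK kinases and a transcription factor complex that contains IRF9 and binds the interferon-stimulated response element (ISRE) in promoters. The response to interferon gamma uses another promoter element, the gamma-activated site (GAS). The products include sensors of viral RNA and DNA, enzymes that degrade RNA or block its translation, the ubiquitin-like protein ISG15 and its ligases, and proteins that trap virus at membranes. Some tumour cells keep part of this program switched on without infection.

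The promoters of 5 genes are shown because these genes span the responses described below: IFIT1, IFI6 and IFI44L, which were higher with siBRAF, ISG20, which was lower with siBRAF, and IRF1, which was higher without glutamine. Each is the 200 bases upstream of the transcription start, 5′ to 3′ on the strand of the gene, from RefSeq on GRCh38.p14. The positions are chr10:89392423-89392622 (plus strand), chr1:27672193-27672392 (minus strand), chr1:78620248-78620447 (plus strand), chr15:88638816-88639015 (plus strand) and chr5:132490774-132490973 (minus strand). Capitals mark the ISRE core, searched as GAAANNGAAA on both strands, in the first 4 and the GAS core, searched as TTCNNNGAA, in IRF1.
IFIT1: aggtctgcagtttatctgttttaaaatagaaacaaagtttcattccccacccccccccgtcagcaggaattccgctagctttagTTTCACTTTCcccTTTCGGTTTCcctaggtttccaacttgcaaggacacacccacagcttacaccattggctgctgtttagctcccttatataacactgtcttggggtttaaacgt
IFI6: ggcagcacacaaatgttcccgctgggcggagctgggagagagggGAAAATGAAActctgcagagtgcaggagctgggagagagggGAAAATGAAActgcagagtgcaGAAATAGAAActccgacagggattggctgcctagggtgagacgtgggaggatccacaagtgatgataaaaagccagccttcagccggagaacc
IFI44L: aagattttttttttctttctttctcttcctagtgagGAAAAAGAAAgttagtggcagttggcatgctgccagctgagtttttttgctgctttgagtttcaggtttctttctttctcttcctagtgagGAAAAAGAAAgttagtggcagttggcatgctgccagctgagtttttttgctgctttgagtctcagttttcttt
ISG20: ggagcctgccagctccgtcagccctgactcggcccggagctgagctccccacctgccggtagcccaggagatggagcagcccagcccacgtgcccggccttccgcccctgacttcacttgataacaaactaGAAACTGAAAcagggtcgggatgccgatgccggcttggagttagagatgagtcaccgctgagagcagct
IRF1: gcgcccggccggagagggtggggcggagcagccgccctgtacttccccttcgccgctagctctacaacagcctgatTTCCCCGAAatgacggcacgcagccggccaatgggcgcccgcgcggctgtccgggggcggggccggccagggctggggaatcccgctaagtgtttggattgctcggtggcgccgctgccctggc
The ISRE cores of IFIT1 lie 116 to 107 and 103 to 94 bases upstream of the start, and ISG20 has 1 core 69 to 60 bases upstream. In windows from 250 bases before to 50 bases after the start, 23 of the 34 genes with a RefSeq promoter held an ISRE core (67.6%), against 4.38% of 27305 genes. The GAS core was in 12 of the 34 (35.3%), against 9.38% of genes. Of the 48 windows of these genes, 10 held both cores, and in 6 of them the cores shared bases. These matches are letters in a window and do not show that a factor bound there. No promoter is given for IFIT2, MX2, OAS2, OASL, IRF7, USP18 and TRIM22.

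The scale of the values differed between the 5 media arrays, whose median intensity was 14.8 to 15.5, and the 3 drug arrays, at 36.4 to 36.9, so each difference was taken within 1 of these sets. The labels could be checked on ATF4, which in normal medium read 1814 with siCont and 534 with siATF4, and in vemurafenib 4548 and 757. BRAF was not analysed here, but SPRY4, a feedback gene driven by ERK signalling, read 225 with siCont and 36.4 with siBRAF in normal medium, and 208 in DMSO and 40.2 in vemurafenib. Of 11 melanocyte and melanoma markers, 8 were above the array median on all 8 arrays, among them SOX10. TYR, also among them, read only 15.4 to 17.7 on the media arrays. MLANA lay below the median on all 8 arrays, PMEL on 5 and NGFR on 1. Of 6 leukocyte markers the summed intensity was 1807 to 1963 on the 3 media arrays without siBRAF and 4475 to 4494 with siBRAF. HLA-DRA made up 4398 and 4419.6 of the siBRAF sums, while LYZ was lower with siBRAF (-1.78 and -1.47 in normal and glutamine-free medium) and CD3E differed by -0.30 and 0.045. HLA-DRA, LYZ and CD3E lay above the median on all 8 arrays, and PTPRC, CD14 and NKG7 below it on all 8. The summed intensity of 5 epithelial markers was 2272 to 2554 without siBRAF and 609 to 669 with it, nearly all of it KRT18 (-2.07 and -1.98), while KRT5, EPCAM and CDH1 differed by -0.015 to 0.20. The part of these marker lists in the siBRAF results was not tested. All 8 arrays are of A375 cells. In bulk RNA, a change in the share of these cells with a transcript and a change in its amount per cell cannot be told apart.

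BRAF knockdown went with higher levels of most interferon-stimulated genes in both media. In normal medium 24 of 41 were at least 2-fold higher with siBRAF than with siCont, where 5.01% of all 19775 genes were, and only ISG20 was at least 2-fold lower, where 5.22% of all genes were. The median log2 difference was 1.12, against -0.0078 for all genes. In glutamine-free medium 21 were at least 2-fold higher (8.93% of all genes) and ISG20 and IRF1 at least 2-fold lower (7.5%), with a median of 1.08. These comparisons share no array, and 18 of the 41 passed 2-fold upward in both media, where 3.8% of all genes were. ISG20 alone was at least 2-fold lower in both, where 2.9% were. The siBRAF array in normal medium gave the highest of the 5 media intensities for 31 of the 41. The share of all genes highest on that array was not computed, so this count has no background to be read against. The effect of losing BRAF and any effect of the siRNA sequence itself cannot be told apart, since 1 siRNA label is given for the target.

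**Figure D1:**
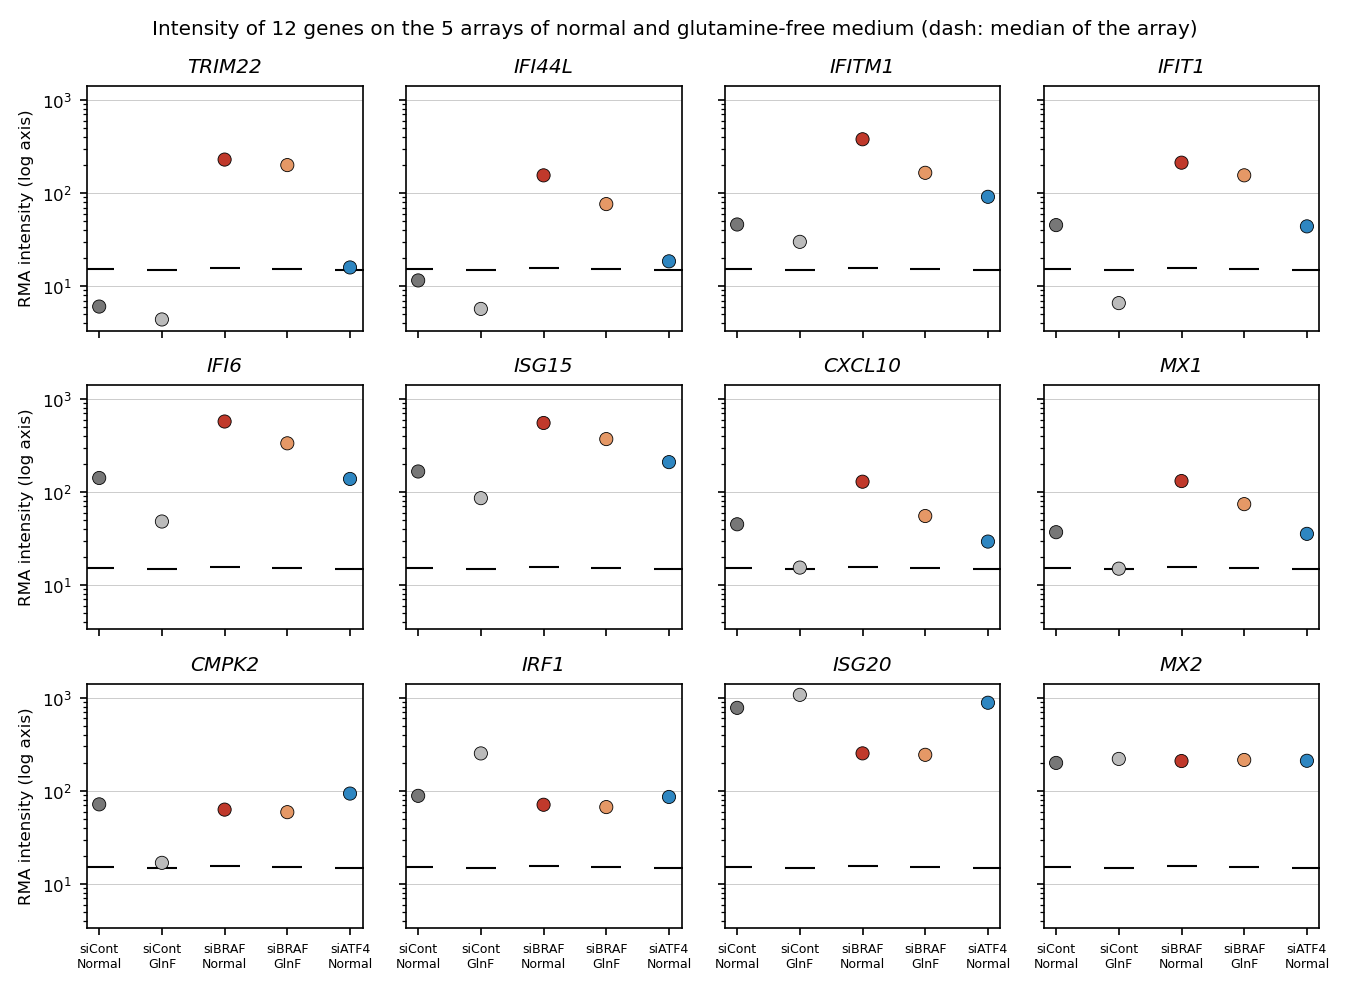
RMA intensity (log axis) of 12 interferon-stimulated genes on the 5 arrays of normal and glutamine-free (GlnF) medium, 1 point an array, with a dash at the median of each array over all probe sets. In 8 panels, TRIM22 to MX1, both siBRAF arrays lie above both siCont arrays. In the ISG20 panel they lie below them, and in the MX2 panel the 5 points lie between 199.7 and 220.4.

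Among the membrane and nuclear restriction factors, TRIM22, a ubiquitin ligase that restricts retroviral transcription, read 6.04 in siCont and 229 in siBRAF cells in normal medium, 4.39 in siCont and 200.1 in siBRAF cells without glutamine, and 15.9 with siATF4. The log2 differences with siBRAF were 5.03 and 5.22, in normal and glutamine-free medium in that order, as in the pairs of siBRAF values below. Both siCont values lay below the array median, so the size of the difference rests on background. IFITM1, which blocks viral entry at membranes, read 46.0 in siCont and 379 in siBRAF cells in normal medium, 30.0 in siCont and 165 in siBRAF cells without glutamine, and 91.3 with siATF4. Both siBRAF arrays exceeded the other 3, with differences of 3.01 and 2.43. The paralogs IFITM2 (0.68 and 1.12) and IFITM3 (0.88 and 1.16) were higher by less, and the IFITM1 probe set is of a type that can also detect related transcripts. MX1, a GTPase that traps viral nucleocapsids, read 36.99 (siCont), 131 (siBRAF) and 35.5 (siATF4) in normal medium and 74.0 in siBRAF cells without glutamine, while in siCont cells without glutamine it lay at about the array median of 14.8. Its differences with siBRAF were 1.80 and 2.23. BST2 (tetherin), which holds budding virus at the cell surface, read 18.8 (siCont), 42.0 (siBRAF) and 35.4 (siATF4) in normal medium and 20.7 (siCont) and 24.1 (siBRAF) without glutamine, so it was 2-fold higher with siBRAF in normal medium only (1.12 and 0.21). MX2 read between 199.7 and 220.4 on the 5 arrays, and neither it nor PLSCR1, a phospholipid scramblase, nor SP100, a nuclear body protein, was 2-fold apart in any comparison by the probe set used. SP100 has 5 other probe sets, and 1 of them, which read at most 25.4 on the media arrays, gave 1.26 without glutamine in siCont cells and -1.57 with siBRAF in glutamine-free medium. PLSCR1 read 419 (siCont), 353 (siBRAF) and 403 (siATF4) in normal medium and 484 (siCont) and 269 (siBRAF) without glutamine.

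The IFIT proteins bind foreign RNA and block its translation. IFIT1 read 45.3 in siCont and 212 in siBRAF cells in normal medium, 6.58 in siCont and 155 in siBRAF cells without glutamine, and 43.9 with siATF4. Its differences with siBRAF were 2.20 and 4.37, and the second rests on a siCont array on which IFIT1 was below the median. IFIT2 read 34.6 (siCont), 159 (siBRAF) and 40.9 (siATF4) in normal medium and 10.4 (siCont) and 147 (siBRAF) without glutamine, with differences of 2.17 and 3.70. A second IFIT2 probe set gave 1.54 and 1.57. IFIT3 read 151 (siCont), 370.5 (siBRAF) and 163 (siATF4) in normal medium and 57.0 (siCont) and 345 (siBRAF) without glutamine and differed by 1.29 and 2.58. In these 3 genes both siBRAF arrays were above every other media array. IFIT5, at 319.6 (siCont), 341 (siBRAF) and 304 (siATF4) in normal medium and 257 (siCont) and 333 (siBRAF) without glutamine, had differences of 0.091 and 0.37.

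The OAS enzymes make an oligoadenylate that activates the ribonuclease RNase L. OAS1 read 32.7 (siCont), 88.5 (siBRAF) and 32.8 (siATF4) in normal medium and 7.47 (siCont) and 52.9 (siBRAF) without glutamine and differed by 1.41 and 2.67 with siBRAF. OAS2 differed by 1.30 and 1.94. The OAS2 value depends on the probe set, since its 2 other probe sets gave -1.26 and -0.061, and 0.13 and 0.24. OAS3 read 164 (siCont), 163 (siBRAF) and 118 (siATF4) in normal medium and 67.1 (siCont) and 114 (siBRAF) without glutamine, equal in siCont and siBRAF cells in normal medium to within a log2 difference of -0.0049. OASL, an OAS-like protein without that activity, read 34.2 (siCont), 47.6 (siBRAF) and 44.3 (siATF4) in normal medium and 18.5 (siCont) and 42.6 (siBRAF) without glutamine and was 2-fold higher only in glutamine-free medium (0.47 and 1.16).

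ISG15 is attached to proteins by the conjugating enzyme UBE2L6 and the ligase HERC5, and removed by USP18. ISG15 read 166 in siCont and 552 in siBRAF cells in normal medium, 85.9 in siCont and 370.4 in siBRAF cells without glutamine, and 209 with siATF4, and its differences with siBRAF were 1.73 and 2.10. The rest of the system followed it in part. HERC5 differed by 0.91 and 1.45 and HERC6 by 1.01 and 0.94, where a second HERC6 probe set, at most 4.56 in intensity, gave 0.45 and -0.047. UBE2L6 read 405 (siCont), 484 (siBRAF) and 419.8 (siATF4) in normal medium and 232 (siCont) and 440.1 (siBRAF) without glutamine and differed by 0.25 and 0.92, under 2-fold. USP18, which also dampens interferon receptor signalling, read 66.9 (siCont), 50.5 (siBRAF) and 65.6 (siATF4) in normal medium and 41.8 (siCont) and 41.7 (siBRAF) without glutamine and was lower by less than 2-fold in normal medium (-0.40).

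Of the 3 sensors, IFIH1 and DDX60 were at least 2-fold higher with siBRAF in normal medium, and none was in glutamine-free medium. IFIH1 (MDA5), a sensor of double-stranded RNA, read 20.9 (siCont), 57.0 (siBRAF) and 28.6 (siATF4) in normal medium and 30.9 (siCont) and 45.8 (siBRAF) without glutamine. It differed by 1.40 and 0.55, and its 2 other probe sets, with intensities of at most 10.3 and 4.06 on the media arrays, gave 0.33 and 0.13 in normal medium. DDX60, a helicase, read 52.1 (siCont), 111 (siBRAF) and 72.7 (siATF4) in normal medium and 62.8 (siCont) and 84.6 (siBRAF) without glutamine and differed by 1.08 and 0.42. IFI16, a DNA sensor, read 571 (siCont), 634 (siBRAF) and 652 (siATF4) in normal medium and 1232 (siCont) and 616 (siBRAF) without glutamine, so that its highest array was siCont without glutamine. With siBRAF in that medium it differed by -0.9996, just short of 2-fold, and its 2 other probe sets gave -1.10 and -1.05.

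Of the transcription factors, IRF9 and IRF7 were higher with siBRAF and IRF1 was not. IRF9, the DNA-binding part of the complex that reads the ISRE, read 63.8 (siCont), 214 (siBRAF) and 87.6 (siATF4) in normal medium and 46.0 (siCont) and 164 (siBRAF) without glutamine, with differences of 1.73 and 1.81. IRF7, which drives interferon alpha genes, read 72.9 (siCont), 156 (siBRAF) and 88.1 (siATF4) in normal medium and 69.3 (siCont) and 106 (siBRAF) without glutamine, at least 2-fold higher in normal medium only (1.09 and 0.60). IRF1, a transcription factor gene induced early by interferon gamma, read 88.4 in siCont and 70.9 in siBRAF cells in normal medium, 253 in siCont and 67.0 in siBRAF cells without glutamine, and 86.0 with siATF4. Its differences with siBRAF were -0.31 and -1.90, and the second came with the high siCont value without glutamine.

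Among enzymes acting on nucleotides and RNA, RSAD2 (viperin) differed by 2.15 and 1.54 with siBRAF, from siCont intensities of 5.10 and 6.06, below the array median. CMPK2, a mitochondrial nucleotide kinase gene next to RSAD2, read 71.6 (siCont), 62.9 (siBRAF) and 93.5 (siATF4) in normal medium and 16.9 (siCont) and 59.0 (siBRAF) without glutamine. The low CMPK2 value was that of siCont cells without glutamine, so its differences with siBRAF were -0.18 and 1.75. ISG20, an exonuclease of single-stranded RNA, read 779.9 in siCont and 253 in siBRAF cells in normal medium, 1076 in siCont and 244 in siBRAF cells without glutamine, and 885 with siATF4. Both siBRAF arrays lay below the other 3, and a second ISG20 probe set gave -1.65 and -2.33 where the first gave -1.62 and -2.14. SAMD9L, a translation repressor, differed by 1.12 and 0.99 (1.05 for the second value in another probe set), and its neighbour SAMD9 read 118 (siCont), 122 (siBRAF) and 96.5 (siATF4) in normal medium and 92.2 (siCont) and 119 (siBRAF) without glutamine.

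PARP9, which acts with a ubiquitin ligase in the interferon response, read 81.6 in siCont and 187 in siBRAF cells in normal medium, 22.4 in siCont and 159 in siBRAF cells without glutamine, and 86.3 with siATF4, and differed by 1.18 and 2.77 with siBRAF. A second PARP9 probe set gave -0.021 and 0.36, so the PARP9 difference was not shared by both of its probe sets. PARP14, an ADP-ribosyltransferase, read 61.5 (siCont), 84.7 (siBRAF) and 69.5 (siATF4) in normal medium and 52.8 (siCont) and 76.9 (siBRAF) without glutamine. IFI6, a small mitochondrial protein linked to survival, read 141 in siCont and 572 in siBRAF cells in normal medium, 48.2 in siCont and 334 in siBRAF cells without glutamine, and 138 with siATF4 and differed by 2.01 and 2.77. IFI27, its relative, read 8.26 (siCont), 55.8 (siBRAF) and 10.2 (siATF4) in normal medium and 7.98 (siCont) and 22.9 (siBRAF) without glutamine. It differed by 2.62 and 1.42, and both siCont arrays gave it less than their median. XAF1, a pro-apoptotic protein, read 10.1 (siCont), 33.9 (siBRAF) and 10.3 (siATF4) in normal medium and 8.36 (siCont) and 18.9 (siBRAF) without glutamine and differed by 1.65 and 1.08. Of its 2 other probe sets, 1 gave 1.19 and 0.31 and 1, at most 7.90 in intensity, gave -0.092 and -0.67. CXCL10, a chemokine that attracts T cells, read 45.0 in siCont and 129 in siBRAF cells in normal medium, 15.4 in siCont and 55.2 in siBRAF cells without glutamine, and 29.3 with siATF4, with differences of 1.499 and 1.78. IFI44L read 11.5 in siCont and 155 in siBRAF cells in normal medium, 5.70 in siCont and 76.3 in siBRAF cells without glutamine, and 18.5 with siATF4, and differed by 3.64 and 3.53, with both siCont values below the array median. Its relative IFI44 read 327 (siCont), 368 (siBRAF) and 382 (siATF4) in normal medium and 178 (siCont) and 333 (siBRAF) without glutamine and was under 2-fold in both media. EPSTI1 differed by 1.18 and 1.15, against 0.82 and 0.14 in a second probe set that read at most 5.51. IFI35, at 214 (siCont), 354 (siBRAF) and 251 (siATF4) in normal medium and 269 (siCont) and 317 (siBRAF) without glutamine, was under 2-fold.

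The 41 genes lie on 16 chromosomes, and 19 of them form 8 clusters of neighbouring genes at most 3 places apart in the order of protein-coding genes. Some neighbours had like values with siBRAF in normal medium, as HERC5 (0.91) and HERC6 (1.01) or OAS1 (1.41) and OAS2 (1.30), and others did not. In normal medium siBRAF gave 3.64 for IFI44L and 0.17 for IFI44 on chromosome 1, 1.80 for MX1 and 0.067 for MX2 on chromosome 21, and 2.15 for RSAD2 and -0.18 for CMPK2 on chromosome 2. On chromosome 10, IFIT1, IFIT2 and IFIT3 were at least 2-fold higher and IFIT5 was not. Of the 25 genes at least 2-fold apart in normal medium, 6 rest on an array below its median, and of the 23 in glutamine-free medium, 10 do. Of the 23 genes with an ISRE core, 15 were at least 2-fold higher with siBRAF in normal medium and 1 lower, and of the 11 without one, 5 were higher. Their medians were 1.18 and 0.72. This split describes single arrays and was not tested.

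**Figure D2:**
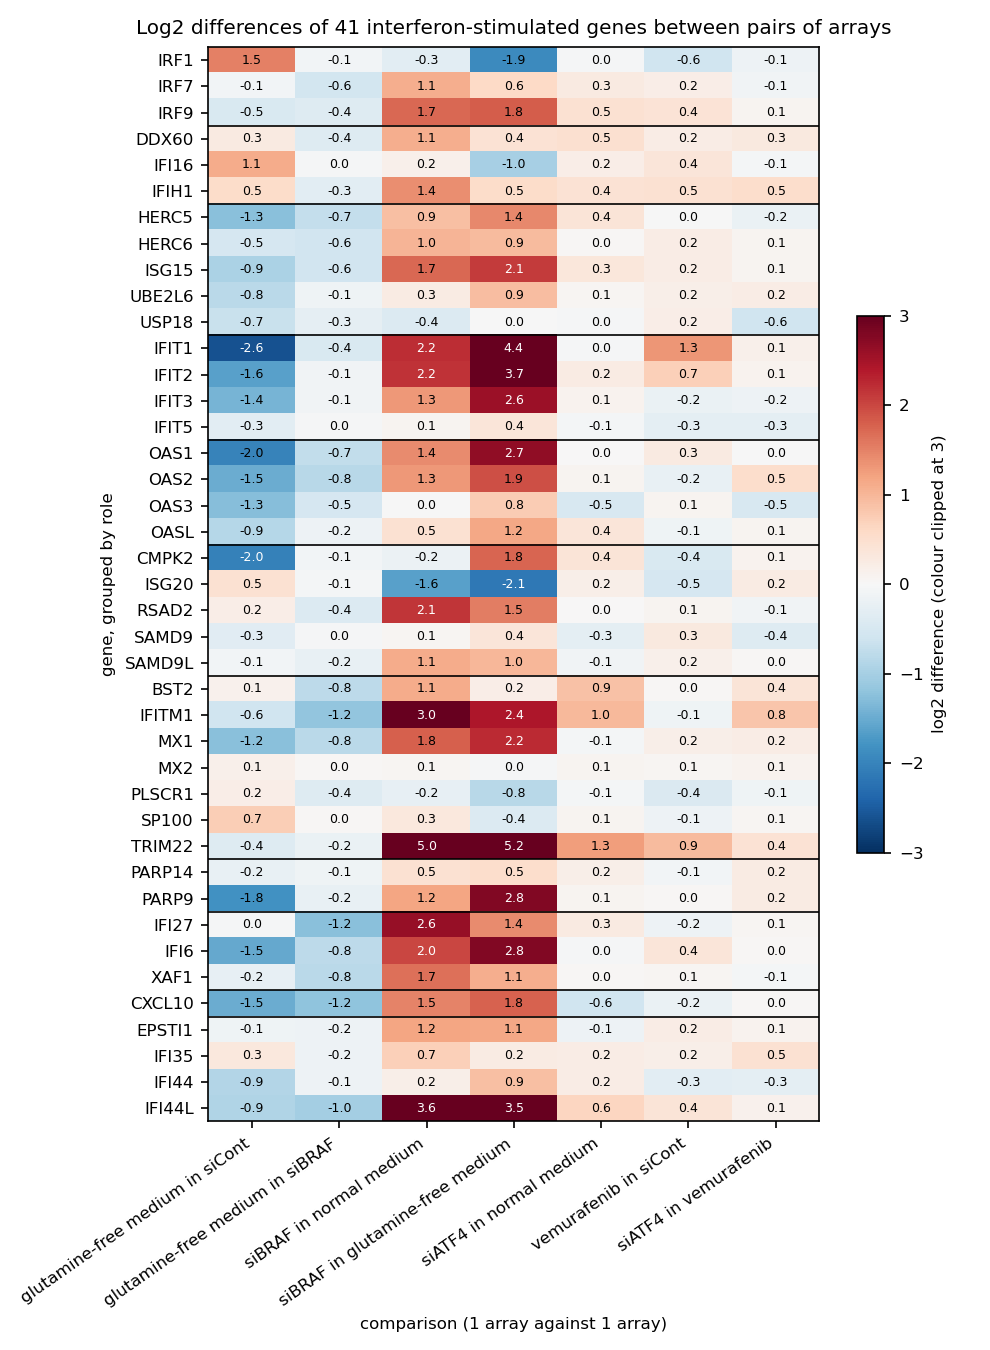
Log2 differences of the 41 genes, grouped by role, in 7 comparisons of 1 array against 1 array, as numbers and colour (colour stops at 3 in either direction). The 2 siBRAF columns are mostly red and the 2 glutamine columns mostly blue, with IRF1, IFI16 and SP100 red in the siCont glutamine column, and the ATF4 and vemurafenib columns are pale.

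Glutamine withdrawal went with lower levels. In siCont cells 12 of 41 genes were at least 2-fold lower without glutamine, where 4.96% of all genes were. IRF1 and IFI16 were at least 2-fold higher, where 3.98% of all genes were, so 2 of 41 is near that share. The median was -0.46, against -0.016 for all genes. The 12 were IFIT1 (-2.61), CMPK2 (-2.02), OAS1 (-1.99), PARP9 (-1.82), IFIT2 (-1.64), IFI6 (-1.53), CXCL10 (-1.49), OAS2 (-1.48), IFIT3 (-1.39), OAS3 (-1.27), HERC5 (-1.26) and MX1 (-1.25). IFIT1, IFIT2, OAS1 and OAS2 read below the array median without glutamine, so their sizes rest on background. Second probe sets gave -0.36 for IFIT2, -0.49 for PARP9 and -0.62 for OAS3, and the 2 others of OAS2 gave -1.21 and -0.08. The siCont array without glutamine was the lowest of the 5 media arrays for 27 of the 41 genes. The share of all genes lowest on that array was not computed, and its median intensity of 14.76 was the lowest of the 5. That array also had the highest ratio of 3′ to 5′ actin signal of the media set, a log2 difference of 0.279 against 0.158 to 0.204 on the other 4, while its GAPDH value of 0.131 lay within the 0.105 to 0.137 of the others. The part of this in the result was not tested.

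IRF1 was higher without glutamine by 1.504 and IFI16 by 1.11, with 1.89 in a second IRF1 probe set and 1.28 and 1.18 in the other IFI16 probe sets. SP100 was higher by 0.74, under 2-fold. The other transcription factor genes, IRF7 (-0.073) and IRF9 (-0.46), were lower by under 2-fold.

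In siBRAF cells the whole array responded little to the medium, with 0.0303% of genes at least 2-fold higher and 0.0556% lower, and against that 4 of 41 interferon-stimulated genes were at least 2-fold lower and none higher. They were IFI27 (-1.25), CXCL10 (-1.21), IFITM1 (-1.19) and IFI44L (-1.02), and all 8 of the values involved lay above the array median. XAF1 was under 2-fold lower by the probe set used (-0.81) and at -1.02 by another. At 1.5-fold, 11 were lower, where 0.632% of all genes were. The values of 39 of the 41 lay below 0, against 46.8% of all genes, with a median of -0.31. The comparisons in siCont and siBRAF cells share no array, and 8 genes were at least 1.5-fold lower in both, where 0.162% of all genes were. These were IFI6, IFI44L, IFITM1, MX1, OAS1, OAS2, HERC5 and CXCL10. Other probe sets of OAS2 gave 0.034 and -0.018 in siBRAF cells, so its fall there was not shared by them. None was at least 1.5-fold higher in both, where 0.116% were.

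**Figure D3:**
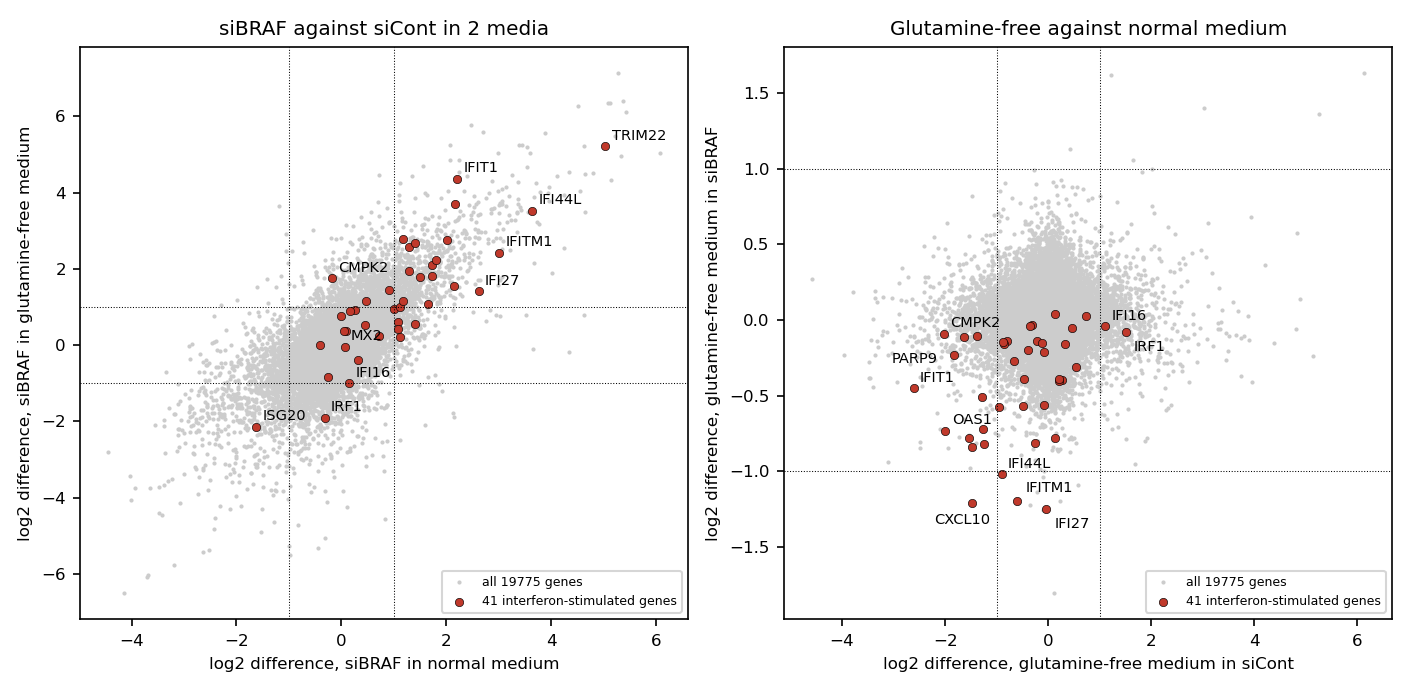
Log2 differences of all 19775 genes (grey) and the 41 interferon-stimulated genes (red), with dotted lines at 2-fold. The left panel sets siBRAF in normal medium (x) against siBRAF in glutamine-free medium (y), where 18 red points lie past 2-fold at the upper right. The right panel sets the glutamine-free response in siCont (x) against that in siBRAF cells (y, a narrower scale), where 39 red points lie below 0 on the y axis.

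The responses to glutamine withdrawal differed in size between siCont and siBRAF cells for some genes. The difference of the 2 responses, from 4 arrays, was at least 2-fold in 9 of 41. It was upward, a smaller loss with siBRAF, for IFIT1 (-2.61 and -0.45 in siCont and siBRAF), CMPK2 (-2.02 and -0.09), PARP9 (-1.82 and -0.23), IFIT2 (-1.64 and -0.11), IFIT3 (-1.39 and -0.10) and OAS1 (-1.99 and -0.73), where 5.29% of all genes were. It was downward for IFI27 (-0.044 and -1.25), IRF1 (1.504 and -0.081) and IFI16 (1.11 and -0.042), where 4.07% were. The median over the 41 was 0.078, and 0.021 over all genes. Second probe sets gave -0.36 and -0.33 for IFIT2, -0.49 and -0.11 for PARP9, -1.07 and -0.25 for IFIT3 and -1.31 and -0.69 for OAS1, so for these 4 genes the difference of responses was under 2-fold in the second probe set. The reverse held for another probe set of OAS2 (-1.21 and -0.018) and of SP100 (1.26 and -0.31). Their difference of responses was at least 2-fold, where that of the probe set used was not. These 2 probe sets read at most 18.1 and 25.4 on the media arrays. IFIT1, CMPK2 and IFI27 have 1 probe set each. CXCL10, by contrast, was lower by a similar amount in both (-1.49 and -1.21).

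ATF4 knockdown went with few differences, and the median over the 41 was 0.086 in normal medium and 0.085 in vemurafenib. In normal medium only TRIM22 was at least 2-fold higher with siATF4 (1.26), where 0.329% of all genes were, and none was 2-fold lower, where 0.268% were. TRIM22 read 6.04 with siCont, below the median, and 15.9 with siATF4. IFITM1 (0.97) and BST2 (0.88) came next, and CXCL10 was lower by under 2-fold (-0.60). In vemurafenib none of the 41 was 2-fold apart in either direction, where 0.152% of all genes were higher and 0.511% lower with siATF4. IFITM1 read 69.2 in DMSO, 63.4 in vemurafenib and 114 in vemurafenib with siATF4, a difference of 0.84 with siATF4, and IFIH1 read 31.2 in DMSO, 43.3 in vemurafenib and 63.2 in vemurafenib with siATF4. USP18 read 116 in DMSO, 133 in vemurafenib and 87.5 in vemurafenib with siATF4, lower with siATF4 by under 2-fold (-0.59). The 2 siATF4 comparisons share no array, and IFITM1 alone was at least 1.5-fold higher in both, where 0.445% of all genes were.

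After 4 h of vemurafenib most of the set was near its DMSO level, while SPRY4, downstream of ERK, differed by -2.34. Only IFIT1 was at least 2-fold higher (1.33), where 0.637% of all genes were, and none was 2-fold lower, where 1.32% were. IFIT1 read 43.5 in DMSO, 111 in vemurafenib and 123 in vemurafenib with siATF4, so both vemurafenib arrays were above the DMSO array. IFIT2, at 47.8 in DMSO, 79.2 in vemurafenib and 85.8 in vemurafenib with siATF4, differed by 0.72, whereas IFIT3, at 246 in DMSO, 215 in vemurafenib and 192 in vemurafenib with siATF4, differed by -0.20. TRIM22 read 8.59 in DMSO, 17.4 in vemurafenib and 23.9 in vemurafenib with siATF4, all below the array medians, so its differences rest on background. IRF1 read 139.7 in DMSO, 92.4 in vemurafenib and 83.2 in vemurafenib with siATF4, lower in vemurafenib by under 2-fold (-0.59). The median over the 41 was 0.085, against 0.021 for all genes. The siBRAF and vemurafenib comparisons differ in time (18 h and 4 h), array set and scale, so they are given side by side only: IFI44L was 3.64 with siBRAF in normal medium and 0.38 with vemurafenib, IFI6 2.01 and 0.36, and ISG15 1.73 and 0.22.

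Of the 41 genes, 10 were under 2-fold in all 7 comparisons by the probe set used: IFIT5 (from -0.31 to 0.37), IFI35 (-0.16 to 0.72), IFI44 (-0.88 to 0.90), MX2 (-0.037 to 0.14), SAMD9 (-0.39 to 0.36), USP18 (-0.67 to 0.19), PARP14 (-0.22 to 0.53), UBE2L6 (-0.80 to 0.92), PLSCR1 (-0.84 to 0.21) and SP100 (-0.40 to 0.74). MX2 varied least among these 10. On the DMSO and vemurafenib arrays it read 411 in DMSO, 429 in vemurafenib and 463 in vemurafenib with siATF4.

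The genes of the interferons themselves were near the lower end of the arrays. Of 21 interferon ligand genes listed, 18 were measured, and 17 of these lay below the array median on all 8 arrays, with intensities of 2.19 to 16.88 over all 18 in the media set. No ligand was 2-fold apart in any comparison, and the range was -0.46 to 0.46. IFNB1, the gene of interferon beta, differed by -0.31 and -0.075 with siBRAF. A fall from these levels could not have been seen, and a low signal does not show that no interferon was made.

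Of 14 measured receptor and signalling genes, IL10RB, a chain of the type III interferon receptor, was at least 2-fold higher with siBRAF (1.498 and 1.68) and IFNGR2, a chain of the interferon gamma receptor, at least 2-fold lower (-1.36 and -1.77), in both media. Of all genes 3.8% were higher and 2.9% lower in both media, and among 14 genes 1 each way is near those shares. IFNAR1, a chain of the type I receptor, differed by 0.81 and 0.87. With vemurafenib the feedback inhibitor gene SOCS3 was at least 2-fold lower (-1.80), from 124 to 34.8, where 1.32% of all genes were. IFNGR2 was just under 2-fold lower (-0.96). Of 14 genes of nucleic acid sensing, none was 2-fold apart with siBRAF in normal medium, where 5.01% of all genes were higher and 5.22% lower. In glutamine-free medium TLR3, a receptor for double-stranded RNA, was higher (1.05), where 8.93% of all genes were. TRIM25, a ligase that activates RIG-I, was lower (-1.37), where 7.5% were. Each is 1 of 14, near those shares. TLR3 was also higher in vemurafenib (1.13), where 0.637% of all genes were. No gene of these lists was 2-fold apart without glutamine, in siCont or in siBRAF cells, or with siATF4 in either setting. In siCont cells without glutamine 3.98% of all genes were higher and 4.96% lower.

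The median of 22 other interferon-inducible genes with siBRAF in normal medium was 0.25. Of these, 4 were at least 2-fold higher (5.01% of all genes) and none lower (5.22%). They were RTP4 (1.38), NLRC5 (1.12), an activator of MHC class I genes, the GTPase gene GBP1 (1.10) and LGALS3BP (1.03). In glutamine-free medium 9 were higher (8.93% of all genes) and 3 lower (7.5%). The 3 lower were CD274 (PD-L1), an inhibitory ligand of T cells, at -5.26, GBP3 at -2.56 and LAMP3 at -2.44. All 3 read below the array median with siBRAF in that medium, so these sizes rest on background. CD274 read 17.3 (siCont), 8.17 (siBRAF) and 15.5 (siATF4) in normal medium and 522 (siCont) and 12.6 (siBRAF) without glutamine, with the high value in siCont cells without glutamine. Without glutamine 3 of the 22 were higher (3.98% of all genes) and 1 lower (4.96%) in siCont cells. In siBRAF cells 1 was lower (0.0556%), the chemokine gene CXCL11 (-1.22), which read below the array median throughout. With vemurafenib CD274 alone was lower (-1.51), to a value below the array median, where 1.32% of all genes were lower. With siATF4 in vemurafenib GBP2 alone was higher (1.01), where 0.152% were.

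**Figure D4:**
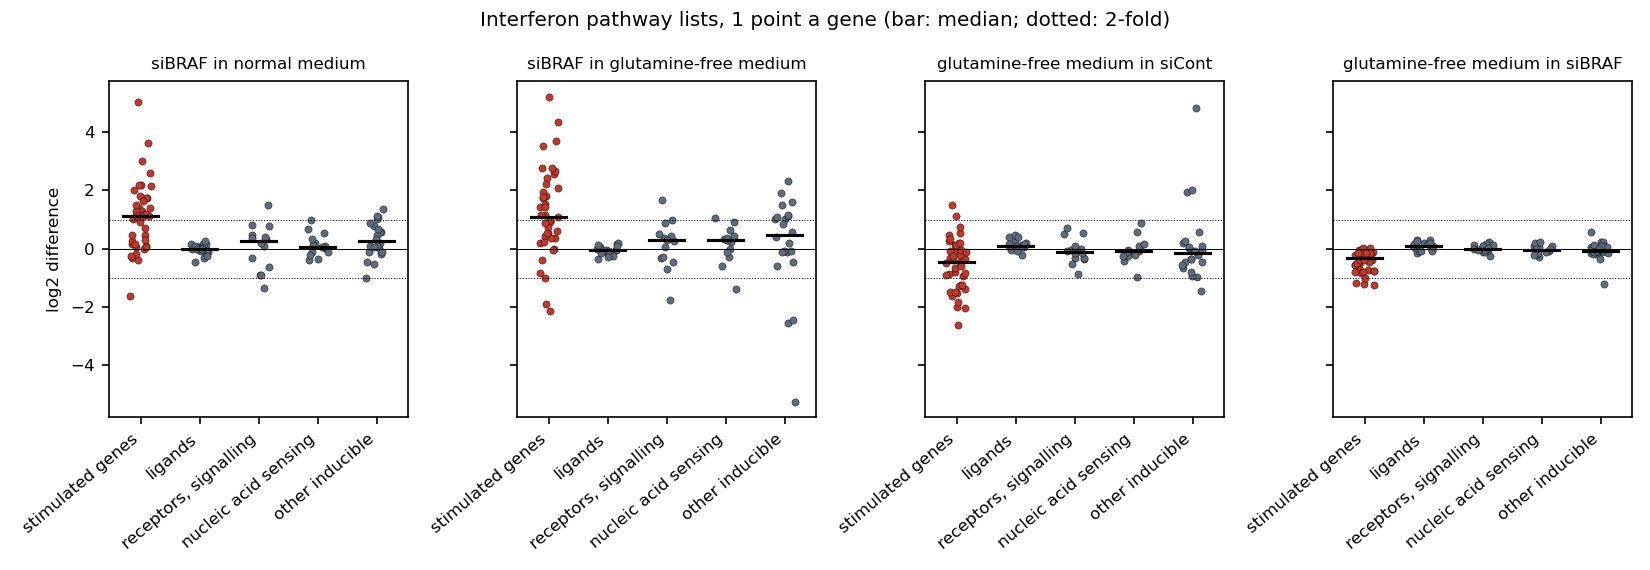
Log2 differences of the 41 stimulated genes (red) and of 18 ligand, 14 receptor and signalling, 14 nucleic acid sensing and 22 other inducible genes (grey-blue), 1 point a gene, with a bar at the median of each list and dotted lines at 2-fold, in 4 comparisons. The stimulated genes have a median of 1.12 with siBRAF in normal medium against 0.27 for receptors and signalling and 0.062 for sensing, and the ligands stay between -0.46 and 0.46.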

How the data were processed

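RNA of A375 cells was measured on 8 Affymetrix human arrays, 1 per condition. The authors deposited intensities on a linear scale, made with RMA per the submitters' processing notes. Its version is not given in the sources used here. There are 54675 probe sets. Of these, 41091 have 1 gene symbol, 1801 several and 11721 none, with 62 array controls, in a platform annotation whose symbols can be old. The members and gene lists were chosen with earlier results of these data known. Values were used as log2(intensity + 1), so a fold change understates the change of low genes, and no filter was applied. The count threshold was 2-fold, with 1.5-fold as a second threshold. With 1 array per condition no test was made and the number of arrays limits the precision. The labels do not say whether cultures were separate.

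All members are accounted for by role, and intensities were given for the 2 members with the highest mean in each role group and for the 3 with the largest difference in each comparison that had an array at or above its median. Median intensities differed between the array sets, which is why differences stay within a set. Of the members, 29 lay at or above the array median on all 8 arrays, and 14 were read by a probe set of a type that can detect several transcripts. Of the members, 22 have several probe sets, and another probe set on the other side of 2-fold is given beside the value. Alternatives were another added constant, filters on the mean, all probe sets averaged, specific probe sets, quantile normalization and 1.5-fold. Counting was tested on simulated data. The software was Python 3.11.15, pandas 2.3.3, numpy 2.4.6 and matplotlib 3.10.9.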

Additional observations from a re-analysis of the deposited data

How the results depend on the processing

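Of 140 counts and medians recomputed under the alternatives, 115 stayed within 1.5 times the count or within 0.25 of the median. Quantile normalization and a filter at the 50th percentile of the mean moved none of the 21 they each covered. The filters use the mean over all arrays of a set, so a gene low in siCont cells can pass through its siBRAF arrays. They therefore cannot show whether the siBRAF counts hold without genes of low signal. With 16 added in place of 1 before the log, 7 genes were at least 2-fold lower without glutamine in siCont cells (3.18% of all genes). In siBRAF cells 2 were lower (0.0202%). In normal medium 14 were higher with siBRAF (3.26%) and 0 with siATF4 (0.167%). The siBRAF median in glutamine-free medium was 0.77. A filter at the 75th percentile left 20 members in the media set and 14 in the vemurafenib set. It gave 4 and 1 lower without glutamine in siCont and siBRAF cells (7.37% and 0.0127% of all genes that passed). With siBRAF 8 and 6 were higher in normal and glutamine-free medium (6.23% and 12.6%), where the medians were 0.28 and 0.68. The same filter gave 0 higher with siATF4 in normal medium and 0 with vemurafenib (0.305% and 0.616%). Averaging all probe sets gave a siBRAF median of 0.80 in glutamine-free medium. Probe sets not of the shared types covered 33 members and gave 1 higher without glutamine in siCont cells and 0 with siATF4 in normal medium (3.89% and 0.316% of all genes). At 1.5-fold, 19 and 11 were lower without glutamine in siCont and siBRAF cells (11.9% and 0.632% of all genes), and 4 lower with siBRAF in glutamine-free medium (14.3%, so below the share of all genes). With siATF4 in normal medium 4 were higher and 1 lower (1.98% and 1.52%), with vemurafenib 3 and 1 (2.44% and 3.28%), and with siATF4 in vemurafenib 1 and 1 (1.39% and 1.86%). A count of 1 of 41 is near these shares. Of 261 single-gene values, 224 kept their direction and size past 2-fold, 36 came under 2-fold, and 1 reversed: PARP9 with siBRAF in normal medium read -0.021 with its other probe set, and the cause was not tested. No paired analysis was possible because each condition has 1 array. Low signal limits the sizes of IFIT1, IFIT2, IFI27, IFI44L, RSAD2, TRIM22, XAF1, EPSTI1, OAS1 and OAS2, and of CD274, GBP3 and LAMP3. It also limits those of MX1, CXCL10 and CMPK2 that use the siCont array without glutamine.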

Other observations

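CD274, which encodes PD-L1, was the gene of the wider interferon-inducible list that stood furthest from the others. In siCont cells its intensity was 17.3 with glutamine and 522 without, a log2 difference of 4.84, and in siBRAF cells 8.17 and 12.6, a difference of 0.57. LAMP3 and GBP3 were higher without glutamine in siCont cells as well, by 2.01 and 1.94, and differed by 0.11 and -0.18 in siBRAF cells. Both read below the array median in normal medium, as CD274 did on both siBRAF arrays, so these sizes rest on background. Of the 22 genes of that list, 13 lay below 0 and 9 above without glutamine in siCont cells, with a median of -0.15. The largest falls were those of GBP2 (-1.46), GBP1 (-0.98) and PSMB9 (-0.95). In vemurafenib CD274 read 23.9 against 70.0 in DMSO, a difference of -1.51, and the vemurafenib value lay below the median of its array. These genes were singled out after their values were seen, each value is that of 1 array, and the cause was not tested.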
